A study of Homo sapiens with 22 samples.

Results

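The granin family was followed through melanoma cells that sit in a drug-susceptible or a primed state, as 6 genes: VGF, SCG2, SCG3, SCG5, CHGA and CHGB. The members were chosen by gene symbol, after VGF had been seen to differ between the 2 replicates of these data. Its levels by state were also known at that point. The VGF levels by replicate are therefore given as a description without a test. All 6 symbols were found among the 33538 genes of the first single-cell table and among the 36601 genes of the other 2. Because the state labels come from clusters of the same cells and genes, the differences between states are also a description.

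Granins are acidic proteins of the regulated secretory pathway. They are packed into dense-core granules, help these granules to form, and are cut by prohormone convertases into peptides that are released when the cell is stimulated. CHGA (chromogranin A) and CHGB (chromogranin B) are classical markers of neuroendocrine cells, SCG2 (secretogranin II) is the precursor of secretoneurin, SCG3 (secretogranin III) anchors other granins to the granule membrane, SCG5 encodes the chaperone 7B2 of the convertase PCSK2, and VGF was named for its induction by nerve growth factor. Melanocytes, like some neuroendocrine cells, arise from the neural crest.

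The study profiled 2 human melanoma lines by droplet single-cell RNA sequencing, in which each captured transcript is counted once through its molecular identifier (UMI). The first experiment holds 12531 untreated WM989 cells, a clone labelled A6-G3 in the methods, in 8 wells: wells 1 to 4 are labelled r1 and wells 5 to 8 r2, from sorted mixed and EGFR/NGFR-high cells whose assignment to wells is not labelled. According to the methods each culture was split over 2 chip wells, so the 8 wells are not 8 separate cultures. The second holds 1449 untreated WM983B cells (clone E9-D5) in 1 library, without a replicate. The third holds 40021 WM989 cells in 8 libraries, 2 each of an untreated Control, TGFB1 (recombinant, 5 ng/mL), TGFBRi (the TGF-β receptor inhibitor LY2109761, 4 uM) and PI3Ki (the PI3K inhibitor GDC-0941, 2 uM), all over 5 days. The cell labels call the replicates r1 and r2 and the sample labels call them Mix and Primed. Which name belongs to which was not settled, so a difference between r1 and r2 cannot be told apart from one between starting populations. In the fourth experiment, chromatin accessibility was measured by ATAC-seq in WM989 cells sorted as EGFR-high, NGFR-high, EGFR/NGFR-high, or negative for both markers (labelled Mix), with 3 libraries each.

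Libraries held between 35882876 and 177318308 UMIs in the first experiment, 102738398 in WM983B, and between 70239657 and 122420544 in the treatment experiment. Primed cells had a share of 6.85% to 79.7% of the 8 wells and 0.647% to 31.3% of the treatment libraries. All 6 melanocytic markers were above 1 CPM (UMIs of a gene per 1000000 UMIs) in both WM989 states, and their sum ran from 4582 to 5433 CPM over the wells in drug-susceptible cells and from 108 to 524 CPM in primed cells. Of 8 neuroendocrine and neuronal markers, SYP and ENO2 were above 1 CPM, CALCA was at 0 in both states and UCHL1 at 0 in primed cells, and the list's sum was 60.9 to 80.1 CPM in drug-susceptible and 59.96 to 95.9 CPM in primed cells. Neither of 2 leukocyte markers reached 1 CPM (their sum was at most 0.139 CPM in each well and state), 1 of 2 epithelial markers (KRT8) did in both states, and 1 of 2 endothelial markers (PECAM1) did in primed cells, where the list summed to 14.7 to 27.3 CPM against at most 0.68 CPM in drug-susceptible cells.

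The promoters of VGF and CHGA are shown first because both contain the full cAMP response element, the letters TGACGTCA through which CREB-type factors act on granin genes in neuroendocrine cells. The sequences are those of RefSeq on GRCh38.p14, from 250 bases before to 50 bases after the start of transcription, and 4 of the 6 members had an entry. VGF lies on the minus strand of chromosome 7 (101162509 to 101165569, 2 exons) and CHGA on the plus strand of chromosome 14 (92923150 to 92935285, 8 exons). Capitals mark the cAMP response element in both and, in VGF, also an E-box (CACGTG), the motif bound by MITF, the melanocyte lineage factor, and related proteins.
VGF, chr7:101165520-101165819, minus strand: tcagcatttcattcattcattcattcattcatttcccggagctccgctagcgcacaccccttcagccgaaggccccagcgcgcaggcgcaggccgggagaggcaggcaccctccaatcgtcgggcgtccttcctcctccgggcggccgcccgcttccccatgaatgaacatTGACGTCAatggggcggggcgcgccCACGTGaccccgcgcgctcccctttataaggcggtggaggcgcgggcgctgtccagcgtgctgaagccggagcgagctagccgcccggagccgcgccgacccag
CHGA, chr14:92922900-92923199, plus strand: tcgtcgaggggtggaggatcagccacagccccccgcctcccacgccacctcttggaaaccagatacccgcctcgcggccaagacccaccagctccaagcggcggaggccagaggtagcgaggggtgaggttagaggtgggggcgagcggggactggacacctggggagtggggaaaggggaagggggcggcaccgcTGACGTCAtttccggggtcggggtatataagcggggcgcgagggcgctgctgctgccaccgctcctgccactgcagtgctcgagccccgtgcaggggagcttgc

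In VGF the cAMP response element begins 79 bp before the start and the E-box 54 bp before it. In CHGA the element begins 54 bp before the start. Both strands were searched and the motifs do not overlap in these sequences. Of 35116 promoters of the same length, 1.85% held TGACGTCA, 7.26% held CACGTG and 7.71% held the AP-1 letters TGANTCA. No AP-1 match was found in the promoters of VGF, CHGA, SCG3 or SCG5, and SCG3 and SCG5 held none of the 3 motifs. VGF was abundant in WM989 cells and CHGA, which has the same element, was almost absent.

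VGF was present in both states of untreated WM989 cells and its summed level was higher in primed cells in 7 of 8 wells. Summed over all cells, VGF reached 749 CPM in the 9688 drug-susceptible cells (95% Poisson interval 746 to 751) and 1371 CPM in the 2843 primed cells (1366 to 1377), a ratio of 1.83. These intervals cover counting error only. The median cell had 105 CPM among drug-susceptible and 962 CPM among primed cells. Of drug-susceptible cells 11.2% were above 2000 CPM and 13.6% had no VGF UMI, against 24.4% and 1.02% of primed cells. Over wells, the SD of the log2 ratio was 0.68 (n = 8 wells, which are not 8 separate cultures), and single wells ran from 0.816 to 3.13.

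In drug-susceptible cells of wells 1 to 4, VGF was 1224, 1184, 821 and 613 CPM, and in those of wells 5 to 8 it was 517, 648, 690.1 and 705 CPM. In primed cells, wells 1 to 4 had 1299, 966, 1777 and 1491 CPM and wells 5 to 8 had 1619, 1601, 1557 and 1801 CPM. The 2 states therefore overlapped through wells 1 and 2, which held 56.9% and 62.4% primed cells, and in well 2 the sum was lower in primed cells although the median cell was higher (722 CPM against 439.8 CPM). In wells 5 and 6, which held 79.7% and 76.9% primed cells, the states did not approach each other. Whether the share of primed cells in a well has a part in its VGF level was not tested.

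**Figure D1:**
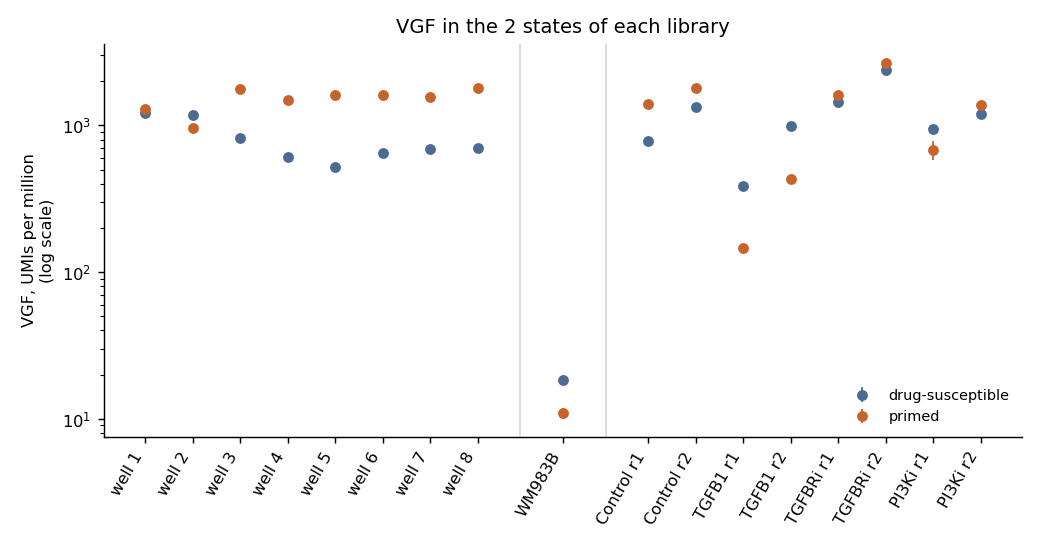
VGF in CPM (log scale) in the drug-susceptible (blue) and primed (orange) cells of each library, with 95% Poisson intervals that are mostly smaller than the points. Primed cells were higher in 7 of 8 wells, WM983B lay below 20 CPM in both states, and under TGFB1 the primed cells fell below the drug-susceptible cells.

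The summed VGF levels of r1 and r2 differed in opposite directions within the 2 states of untreated WM989, while their wells overlapped in both states. Summed over wells, drug-susceptible cells had 788 CPM in r1 and 684 CPM in r2, a ratio of r2 to r1 of 0.868 (0.717 to 0.941 without 1 well). Primed cells had 1135 CPM in r1 and 1619 CPM in r2, a ratio of 1.43, which was 1.12 without well 2 and 1.41 to 1.49 without any other well (left out after the data were seen). Over all cells the summed level was 1.12 times as high in r2, and this direction turned without well 4 (log2 difference -0.05 without it). Median depth per primed cell was 50467 UMIs in r1 and 82315 UMIs in r2, and its part in the difference was not tested. In the treatment experiment VGF was higher in r2 in all 4 conditions, by 1.71 times in Control, 1.26 times in PI3Ki, 2.58 times in TGFB1 and 1.64 times in TGFBRi. The direction was the same within drug-susceptible cells (1.71, 1.26, 2.55 and 1.64 times, in that order) and within primed cells (1.29, 2.03, 2.94 and 1.64 times).

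WM983B cells had little VGF. Its level was 18.3 CPM in 718 drug-susceptible cells (interval 17.1 to 19.4) and 10.9 CPM in 731 primed cells (9.95 to 11.8), so the summed level was lower in primed cells, unlike in WM989. By phase, however, primed cells in G1 had 20.2 CPM (18.0 to 22.5) against 16.6 CPM (14.5 to 18.9) in drug-susceptible cells, and in S and G2M they had 7.54 and 5.10 CPM against 17.2 and 19.998 CPM. The median cell had 0 CPM in both states, and the 75th percentile was 13.7 CPM in drug-susceptible and 13.4 CPM in primed cells. In single cells, 67.4% of WM983B cells had no VGF UMI at a median depth of 66668 UMIs per cell. SCG2 was 3.58 CPM and 4.08 CPM in the 2 states and SCG5 0.204 and 0.369 CPM. None of these 3 genes was 2-fold higher in the primed cells of this line, as labelled by its clusters, whereas 5.14% of 19289 genes and 3 of the 4 primed markers were. With 1 library, no difference between lines can be tested.

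SCG2 and SCG5 followed the primed state in WM989 far more closely than VGF. SCG2 (chromosome 2, 223596940 to 223602361, minus strand, 2 exons) was 3.65 CPM in drug-susceptible cells and 172 CPM in primed cells, a ratio of 47.2 that ran from 22.9 to 62.4 over the 8 wells (SD of log2 0.46). SCG5 (chromosome 15, 32641676 to 32697098, plus strand, 6 exons) was 1.76 and 57.7 CPM, a ratio of 32.9 with a range of 20.7 to 44.2 (SD of log2 0.37). The files do not say how reads shared by SCG5 and the read-through gene ARHGAP11A-SCG5, which overlap in the annotation, were counted, so SCG5 values may hold reads of both. For SCG2 and SCG5 every well's primed level exceeded every well's drug-susceptible level, as it did for 9.89% of 20456 genes with more than 3 UMIs in both states.

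In primed cells SCG2 was 137, 141, 184 and 166 CPM in wells 1 to 4 and 221, 186, 191 and 199.6 CPM in wells 5 to 8. SCG5 was 27.7, 36.6, 31.2 and 38.6 CPM in wells 1 to 4 and 77.6, 86.0, 53.3 and 111 CPM in wells 5 to 8. All 4 wells of r2 were above all 4 of r1 for both genes, and so were those of 29% of 18438 genes in primed cells. In drug-susceptible cells both genes again had their 4 highest wells in r2 (SCG5 2.52 to 3.27 CPM against 0.633 to 1.38 CPM), as did 30.7% of 19701 genes.

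After each cell was thinned to 10000 UMIs, the share of cells in which SCG2 was detected was 51.5% when primed and 3.41% when drug-susceptible (unthinned 80.3% and 15.0%, at median depths of 58253 and 52835 UMIs). For SCG5 the shares were 19.8% and 1.55% (unthinned 44.2% and 6.97%), and for VGF 94.0% and 61.1% (unthinned 99.0% and 86.4%). The drug-susceptible share is the nearest thing to a background of free RNA here. In r2, SCG2 in drug-susceptible cells was higher in the wells with the larger primed share. It was 6.89 and 8.15 CPM in wells 5 and 6 (79.7% and 76.9% primed). Wells 7 and 8 (9.17% and 9.42% primed) had 4.55 and 4.02 CPM. In r1 the wells lay close together. SCG2 was 3.28 and 2.94 CPM in wells 1 and 2 (56.9% and 62.4% primed). In wells 3 and 4 (7.87% and 6.85% primed) it was 2.94 and 3.002 CPM. The part of free RNA in these low values was not tested.

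**Figure D2:**
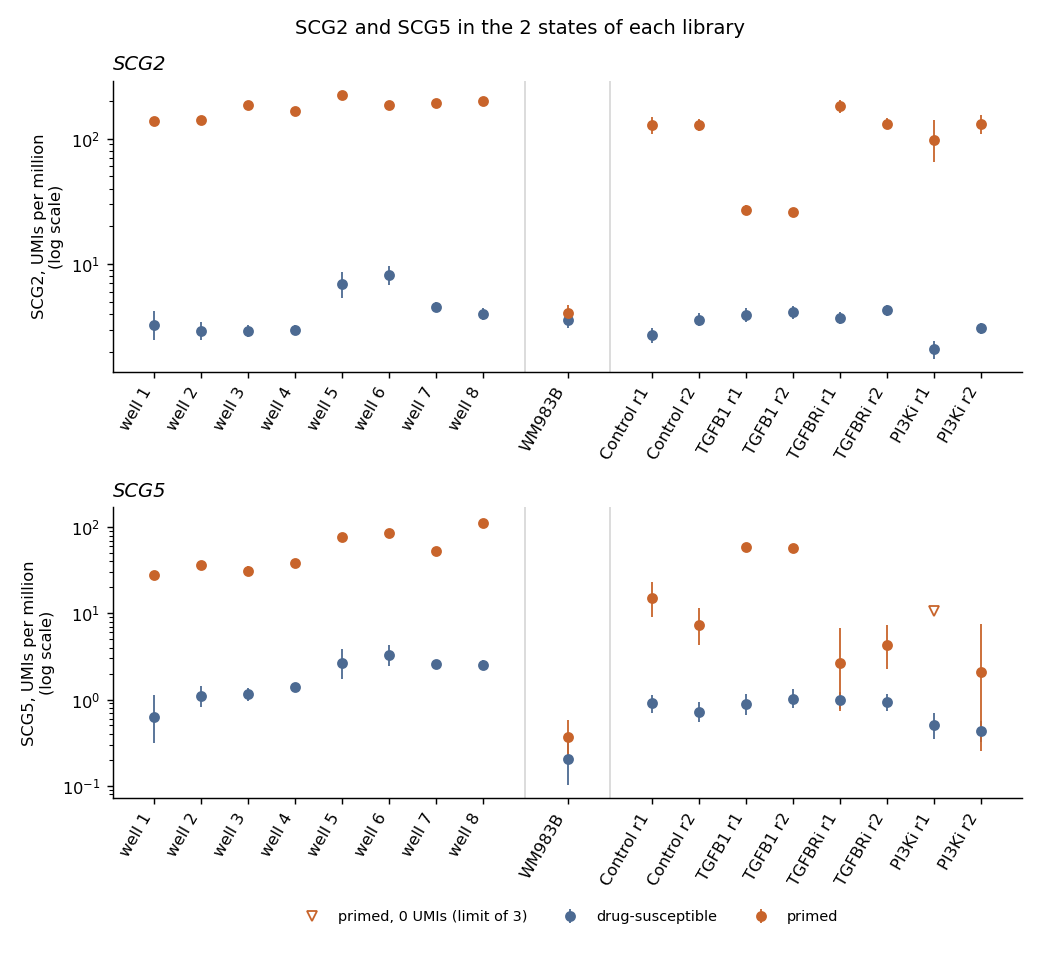
SCG2 (top) and SCG5 (bottom) in CPM (log scale) in drug-susceptible (blue) and primed (orange) cells of each library, with 95% Poisson intervals; an open triangle is the limit that 0 UMIs allow. In the 8 wells primed SCG2 lay between 137 and 221 and primed SCG5 between 27.7 and 111, and under TGFB1 primed SCG2 was 27.2 and 25.9 while primed SCG5 was 59.0 and 56.9.

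Within the primed clusters, SCG2 and SCG5 were found in the same cells about as often as their separate shares would give. In thinned cells of cluster 2, 51.3% had SCG2, 18.6% had SCG5 and 9.38% had both, where the product of the shares is 9.57%. Clusters 8 and 9 gave 11.4% against 11.5% and 9.16% against 10.3%. So the 2 genes were raised in the same clusters, without one being more frequent in the cells that had the other.

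The 3 remaining members stayed near the limit of detection. CHGB (chromosome 20, 5911510 to 5925353, plus strand, 5 exons) was 0.247 CPM in drug-susceptible and 1.15 CPM in primed WM989 cells (138 and 221 UMIs), a ratio of 4.65 and higher in primed cells in all 6 wells with more than 3 UMIs in both states. Without primed cluster 2 the ratio came to 1.68 on the log2 scale, from 2.22 with it. SCG3 (chromosome 15, 51681492 to 51721026, plus strand, 12 exons) went the other way, with 0.605 CPM in drug-susceptible and 0.219 CPM in primed cells, although 2 of 6 wells had the opposite direction. CHGA had 0 UMIs in all 12531 cells of untreated WM989, which allows 0.0169 to 0.0836 CPM in a well. It had 3 UMIs in WM983B and 4 in the treatment libraries together.

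Among the clusters that the authors deposited for untreated WM989, VGF and SCG2 did not rank alike. Summed over wells, VGF was lowest in drug-susceptible cluster 5 (176 CPM), which was also the lowest in wells 2, 3, 4, 7 and 8 but not in wells 1, 5 and 6, where it held 7 to 25 cells. Drug-susceptible cluster 0 had 1211 CPM as a sum and primed cluster 9 had 1268 CPM, but their order differed between wells. Cluster 0 was above cluster 9 in wells 1 and 2 (2121 against 826 CPM and 2201 against 857 CPM) and below it in the other 6 wells, as in well 5 (401 against 1377 CPM) and well 6 (521 against 1484 CPM). The median cell had 289 CPM in cluster 0 and 929.7 CPM in cluster 9. Primed clusters 2 and 8 had 1365 and 1558 CPM as sums over wells. SCG2 separated the primed clusters (129 to 199 CPM) from the others (2.6 to 11.8 CPM). Drug-susceptible cluster 10 was intermediate for both SCG2 (11.8 CPM) and SCG5 (4.82 CPM), and it had the highest SCG3 (1.87 CPM, with 1.76 CPM in r1 from 33 UMIs and 2.24 CPM in r2 from 12 UMIs). By cell cycle phase, drug-susceptible VGF was 704 CPM in G1, 850.5 CPM in S and 632 CPM in G2M, and primed VGF was 1433, 1386 and 1112 CPM.

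In the treatment experiment the 2 clusters with the most VGF were drug-susceptible. Clusters 2 and 8 had 4665 and 4378 CPM of VGF with 3.7 and 3.13 CPM of SCG2, while the 11 other clusters had between 184 and 1911 CPM of VGF. In cluster 2, 99.8% of cells were above 1000 CPM of VGF, and in cluster 3 it was 3.42%. Since VGF was among the genes that were clustered, this separation is no test.

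**Figure D3:**
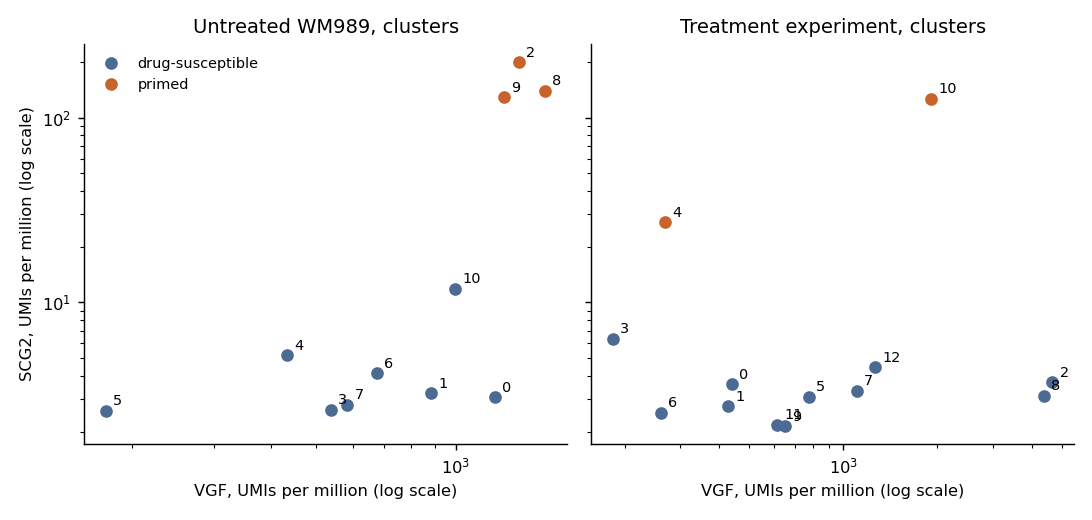
SCG2 against VGF in CPM (both axes log scale), with 1 numbered point per deposited cluster of untreated WM989 (left) and of the treatment experiment (right), blue for drug-susceptible and orange for primed clusters. High SCG2 marked the primed clusters, whereas the highest VGF of the treatment experiment, 4665 and 4378 CPM, was in drug-susceptible clusters 2 and 8.

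Genes with a pattern like that of VGF or SCG2 were sought over 22 sums of cluster and replicate in untreated WM989, by Pearson's r of log2(CPM + 1) among 8048 genes with a mean of at least 10 CPM. The 5 genes nearest to VGF were MAGI1 (r = 0.756), PNPLA8 (0.744), DDIT4 (0.742), BNIP3 (0.733) and MRPL17 (0.733). In the 26 sums of the treatment experiment the same pairs gave -0.0323, 0.17, 0.377, 0.174 and 0.521. Among the nearest to SCG2 were VEGFC (0.988), BASP1 (0.987), SLC12A8 (0.987) and SLC16A6 (0.982), with 0.864, 0.838, 0.881 and 0.59995 in the treatment experiment. SCG2 and SCG5 gave 0.975 and 0.702. VGF and SCG2 gave 0.637 in untreated cells and 0.0329 in the treatment experiment. The sums share libraries and clusters, so these values are descriptions.

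TGF-β and PI3K signalling were then set against the granins, since the study asked which pathways move cells between the states. The 3 treatments were compared with the same 2 Control libraries. According to the methods, the cells of a single well were split over the conditions. This was done for 2 samples side by side, the replicates. With 2 libraries a condition and replicate as a term, p-values measure how unevenly the conditions differed in the 2 replicates, pooled over 8 libraries. A difference between r1 and r2 that all conditions share does not enter them. The spread that does enter may be technical. All adjusted p-values are from edgeR's quasi-likelihood test with replicate as a term and Benjamini-Hochberg adjustment over all genes tested, and a change is called at an adjusted p under 0.05. Where the cells of both states are summed, a change in the number of cells of a type and a change in RNA per cell cannot be told apart.

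Over all cells, TGFB1 lowered VGF and raised SCG2 and SCG5. VGF was 795 and 1356 CPM in Control (r1 and r2) and 327 and 842 CPM in TGFB1. It was lower in both replicates, but TGFB1 r2 lay above Control r1, so the groups overlapped. The log2 fold change was -0.97 (SE 0.13, adjusted p = 3.06e-06), a level 1.963 times as high in Control. Without the replicate term the adjusted p was 0.109, the highest of 8 alternatives, and the call was lost there.

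SCG5, the 7B2 chaperone, was 1.14 and 0.922 CPM in Control and 15.5 and 15.7 CPM in TGFB1. The groups were far apart, with a 15.0-fold rise (log2 3.91, SE 0.11, adjusted p = 4.42e-17). SCG2 was 4.87 and 7.47 CPM in Control and 9.8 and 9.87 CPM in TGFB1, which did not overlap (1.60-fold higher, log2 0.68, SE 0.12, adjusted p = 0.00013). SCG3 (log2 0.31, adjusted p = 0.263) and CHGB (log2 0.49, adjusted p = 0.259) did not pass, and CHGA had too few UMIs to be tested. So 3 of the 5 tested members were called, beside 29% of all 18389 genes.

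TGFBRi raised VGF, and no other member was called with the filter on low counts. VGF was 1453 and 2388 CPM in TGFBRi, above both Control libraries, with a log2 fold change of 0.86 (SE 0.13, adjusted p = 0.000278), or 1.82-fold. Of all genes 2.53% were called. Without the replicate term the value was 0.86 with an adjusted p of 0.596, the highest of 8 alternatives. SCG2 was 6.93 and 8.71 CPM, which overlapped Control (log2 0.37, adjusted p = 0.131). With no filter on low counts SCG2 was called (log2 0.38, adjusted p = 0.00357), and over its 8 alternatives the adjusted p ran up to 0.755. SCG5 was 1.01 and 1.04 CPM (log2 0.01, SE 0.16, adjusted p = 0.992), which overlapped Control.

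PI3Ki lowered SCG2 and SCG5 over all cells without a called change in VGF. SCG2 was 2.48 and 4.07 CPM, both below Control (log2 -0.78, SE 0.13, adjusted p = 0.000343), a level 1.72 times as high in Control. SCG5 was 0.498 and 0.441 CPM, again below both Control libraries (log2 -1.04, SE 0.18, adjusted p = 0.000507), 2.05 times as high in Control. VGF was 950.3 and 1198 CPM, between the 2 Control libraries (log2 0.16, SE 0.13, adjusted p = 0.492). CHGB was 0.698 and 0.482 CPM against 0.23 and 0.449 CPM (log2 0.83, SE 0.29, adjusted p = 0.0707). It was called with no filter on low counts (0.0119), without Control r2 (0.0489) and without PI3Ki r2 (0.0148), and its adjusted p was as high as 0.646 without PI3Ki r1. Thus 2 of 5 tested members were called, beside 12.7% of all genes. The SCG2 call was lost without the replicate term (adjusted p = 0.0846, the highest of 8 alternatives). Within the states SCG2 had no called change with PI3Ki. The log2 fold change was -0.17 in drug-susceptible cells (SE 0.13, adjusted p = 0.437) and -0.12 in primed cells (adjusted p = 0.876). Primed cells made up 2.26% and 4.47% of Control (r1 and r2) and 0.647% and 1.21% of PI3Ki. The part of this in the fall of SCG2 was not tested.

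In order, VGF over all cells was highest in TGFBRi, followed by Control and PI3Ki, whose libraries overlapped, and lowest in TGFB1, whose r2 library lay within the range of Control. SCG5 had its order as TGFB1, then Control and TGFBRi, whose libraries overlapped, then PI3Ki.

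The VGF difference was seen in the median cell and in the share of cells with much VGF. The median cell had 170.5 and 413 CPM of VGF in Control (r1 and r2), 36.5 and 168 CPM in TGFB1, 441.5 and 1238 CPM in TGFBRi, and 167 and 349 CPM in PI3Ki. Cells above 2000 CPM made up 11.8% and 22.5% of Control, 3.73% and 11.95% of TGFB1, 23.3% and 39.9% of TGFBRi, and 15.3% and 20.6% of PI3Ki. Within each replicate TGFB1 had the fewest and TGFBRi the most such cells. The 10th percentile was 0 in 7 of the 8 libraries. Clusters 2 and 8 together had 44.2% to 71.0% of the VGF UMIs of each library. They held 10.4% and 18.8% of the cells of Control (r1 and r2), 2.99% and 7.93% of TGFB1, 14.5% and 18.4% of PI3Ki, and 19.7% and 32.9% of TGFBRi. The VGF level inside them was 4318 and 4388 CPM in Control and 4058 and 4496 CPM in TGFB1, and in the other clusters it was 391 and 609 CPM in Control and 189 and 471 CPM in TGFB1. These clusters were built with VGF among the genes, so their shares are a description.

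**Figure D4:**
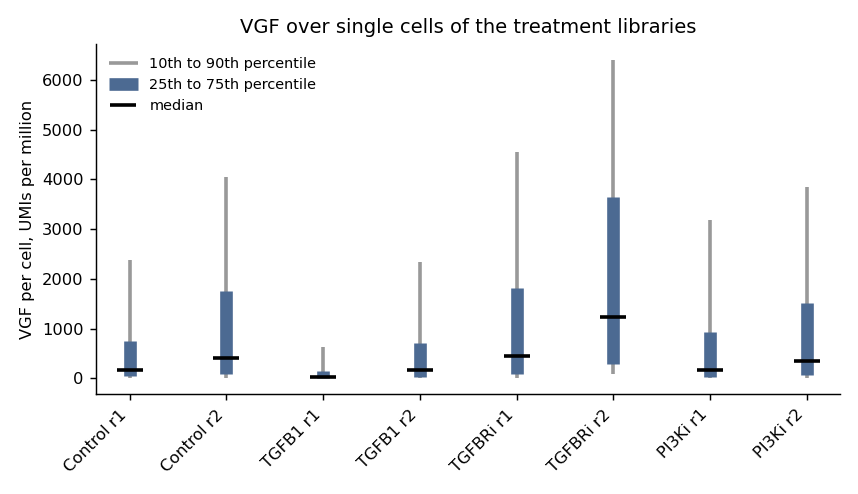
VGF per cell in CPM in the 8 treatment libraries, as the 10th to 90th percentile (grey), the 25th to 75th percentile (blue) and the median (black) over cells. Within each replicate the median was lowest in TGFB1 (36.5 and 168) and highest in TGFBRi (441.5 and 1238), and each r2 library lay above its r1 library.

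Drug-susceptible cells alone, which made up most cells of every library, gave the same directions for VGF. Their clusters differed between conditions. Cluster 3 held 2182 of 3842 such cells in TGFB1 r1 and 1619 of 3858 in TGFB1 r2. In Control it held 56 of 4058 (r1) and 59 of 3527 (r2). The part of this in the VGF difference was not tested. VGF was 784 and 1341 CPM in Control, 388 and 989.6 CPM in TGFB1, and 1450.2 and 2379 CPM in TGFBRi. The log2 fold change was -0.72 for TGFB1 (SE 0.12, adjusted p = 0.000183) and 0.87 for TGFBRi (SE 0.12, adjusted p = 0.000104). The TGFB1 call was lost without TGFB1 r1 (log2 -0.40, adjusted p = 0.0569) and without the replicate term (adjusted p = 0.33), and the TGFBRi call without the replicate term (adjusted p = 0.528), in each case the highest adjusted p of the 8 alternatives being that without the term.

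The rise of SCG5 with TGFB1 was not seen in drug-susceptible cells. SCG5 was 0.899 and 0.72 CPM in Control and 0.886 and 1.02 CPM in TGFB1 (log2 0.23, SE 0.20, adjusted p = 0.511). SCG2 was 2.72 and 3.59 CPM in Control and 3.95 and 4.11 CPM in TGFB1 (log2 0.34, adjusted p = 0.0698), and passed with no filter on low counts (0.0445) and without TGFB1 r2 (0.0277), with up to 0.644 without TGFB1 r1. SCG3 passed narrowly with TGFB1 (0.612 and 0.617 CPM in Control, 0.936 and 0.961 CPM in TGFB1, log2 0.61, SE 0.20, adjusted p = 0.0454), and SCG5 with PI3Ki (0.5 and 0.428 CPM, log2 -0.71, SE 0.21, adjusted p = 0.0279). Leaving out any 1 library of the 2 conditions ended both of these calls, with adjusted p-values of 0.145 to 0.271 for SCG3 and 0.0549 to 0.277 for SCG5, and DESeq2 did too (0.28 and 0.178). With no filter on low counts SCG2 with TGFBRi (log2 0.35, adjusted p = 0.0469) and CHGB with PI3Ki (log2 0.84, adjusted p = 0.0125) also passed. Of all 17914 genes, 14.9% were called with TGFB1, 2.81% with TGFBRi and 12.1% with PI3Ki.

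Primed cells under TGFB1 had less VGF and SCG2 and more SCG5 than primed cells of Control. VGF was 1403 and 1811 CPM in Control and 147 and 431 CPM in TGFB1, 5.94 times as high in Control (log2 -2.57, SE 0.16, adjusted p = 3.9e-16). SCG2 was 127 and 129 CPM in Control and 27.2 and 25.9 CPM in TGFB1, 4.58 times as high in Control (log2 -2.19, SE 0.14, adjusted p = 9.97e-16). SCG5 was 14.9 and 7.24 CPM in Control (20 and 18 UMIs) and 59.0 and 56.9 CPM in TGFB1, a 6.04-fold rise (log2 2.59, SE 0.22, adjusted p = 3.43e-12). For each of the 3 genes the 2 groups were well apart, and the calls held under all 8 alternatives. However, the clusters that define primed cells were built from these same counts and differed between the conditions, as given below. In these tests a treatment change and a difference between clusters cannot be told apart. Of 10930 genes, 13.3% were called.

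Different clusters held the primed cells of the 2 conditions. Cluster 4 had 3254 of its 3270 cells from TGFB1, and cluster 10 had 248 of its 807 cells from Control, 389 from TGFBRi, 90 from PI3Ki and 80 from TGFB1. In cluster 4 the TGFB1 cells had 267 CPM of VGF, 26.6 CPM of SCG2 and 59.1 CPM of SCG5. The 11 Control cells of cluster 4 had 888 CPM of VGF, 113 CPM of SCG2 and 10.3 CPM of SCG5 (2 UMIs). In cluster 10 the replicates of VGF went opposite ways, with 887 CPM in TGFB1 r1 (29 cells) against 1506 CPM in Control r1, and 1982 CPM in TGFB1 r2 (51 cells) against 1815 CPM in Control r2. SCG2 in cluster 10 was 24.7 CPM in TGFB1 (15.8 to 36.7) against 129 CPM in Control (118 to 141). SCG5 there was 6.17 CPM (2.27 to 13.4) in TGFB1 and 9.91 CPM (6.94 to 13.7) in Control. SCG2 was thus lower in TGFB1 cells of both clusters. These within-cluster values have no test.

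SCG2 in primed cells had no called change with the other treatments. Its level was 181 and 132 CPM in TGFBRi (log2 0.25, SE 0.14, adjusted p = 0.681) and 98.1 and 130 CPM in PI3Ki (log2 -0.12, SE 0.18, adjusted p = 0.876), from as few as 25 cells in PI3Ki r1. With TGFBRi no member was called (VGF 1618 and 2654 CPM, log2 0.35, adjusted p = 0.478, SCG5 2.67 and 4.3 CPM, log2 -1.41, adjusted p = 0.221), beside 0.375% of all genes, or 41 genes. At an unadjusted p under 0.05, 944 genes passed, VGF and SCG5 among them. With PI3Ki, 4 of 6 melanocytic markers were called higher and 2 of 4 primed markers lower in primed cells (median log2 1.12 and -1.08). The part of this in the VGF change was not tested. VGF with PI3Ki was 676 and 1376 CPM and was called lower (log2 -0.78, SE 0.17, adjusted p = 0.00423), beside 1.78% of all genes. This call was lost without Control r1 (log2 -0.40, adjusted p = 0.561, the highest of 8 alternatives) and without the replicate term (0.505). SCG5 had 0 UMIs in PI3Ki r1 and 2 in PI3Ki r2, and was called only without Control r2 among its alternatives (adjusted p = 0.0204).

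The fold changes of primed and drug-susceptible cells were compared directly by a term for state and treatment. With TGFB1 the primed minus drug-susceptible difference was -1.74 on the log2 scale for VGF (SE 0.09, adjusted p = 1.63e-78), -2.44 for SCG2 (SE 0.18, adjusted p = 2.49e-40) and 2.40 for SCG5 (SE 0.32, adjusted p = 9.65e-12), beside 9.98% of all 18502 genes. For VGF it was -0.46 with TGFBRi (SE 0.09, adjusted p = 0.000293) and -0.79 with PI3Ki (SE 0.10, adjusted p = 2.94e-11), where 0.551% and 1.21% of all genes were called. In this fit the prior degrees of freedom were estimated as infinite, so every gene took its spread from the common trend. A limma fit on the difference of the states within each library, chosen after the data were seen, gave nearly the same sizes (-1.76, -2.46, 2.41, -0.47 and -0.95) but adjusted p-values of 0.137, 0.172, 0.83, 0.988 and 0.33, so that all 5 calls were lost. Leaving out 1 library in turn ended the VGF call with TGFBRi without Control r1 (-0.26, adjusted p = 0.558) and none of the other 4. Over the 6 alternatives of each of these results the lowest adjusted p was 2.76e-83, 1.66e-39, 3.61e-12, 6.19e-06 and 2.38e-15, and the highest was that of limma.

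Genes that make, cut and release granins were followed as 4 lists, which were assembled with earlier results of these data known. Their counts are descriptions. In untreated WM989, among the genes with more than 3 UMIs in both states, 19.3% of 20456 were at least 2-fold higher and 7.85% at least 2-fold lower in primed cells. Of 24 such genes of dense-core granule biogenesis and exocytosis, 10 were higher and 4 lower. SNAP25, the exocytotic SNARE protein, was 38.2-fold higher, RAB27B, a GTPase of granule docking, 32.1-fold (2.78 to 89.3 CPM), HID1 28.2-fold, PTPRN2, a granule membrane protein, 19.0-fold, and STX1A, another SNARE protein, 16.9-fold. SYT7, a calcium sensor of release, was 8.38-fold lower. HID1 was not above 1 CPM in either state. SNAP25 and PTPRN2 were above 1 CPM only in primed cells, and SYT7 only in drug-susceptible cells.

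Prohormone-processing enzymes did not move as a group. Of 10, 2 were at least 2-fold higher (CPE, carboxypeptidase E, 5.22-fold, and PAM, the amidating enzyme, 3.96-fold) and 2 lower (PCSK6 6.99-fold and QPCT, glutaminyl cyclase, 4.30-fold). The granule convertases PCSK1 (0.0645 and 0.0885 CPM) and PCSK2 (0.428 and 0.38 CPM, the partner of SCG5) were below 1 CPM in both states. Of 9 VGF receptors and neurotrophin partners, 3 were higher (BDNF 117-fold, NGFR 27.4-fold, and C3AR1, a receptor of a VGF peptide, 9.78-fold) and 1 lower. CPE, BDNF and C3AR1 were above 1 CPM only in primed cells, and PCSK6 only in drug-susceptible cells. Of 15 regulators, 3 were higher (JUN 26.1-fold, FOSL1 3.04-fold, EGR1 2.33-fold) and 1 lower (NR4A1 3.40-fold), while REST, the repressor of neuronal genes, was 37.9 and 54.4 CPM. None of 5 neuroendocrine markers with enough UMIs differed by 2-fold. All 6 melanocytic markers were lower and all 4 primed markers higher by at least 2-fold.

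With TGFB1, over all cells, where 29% of all genes were called (2990 higher and 2334 lower), 3 of 8 tested processing genes rose and 1 fell (CPE 3.04-fold, FURIN 1.76-fold and PAM 1.42-fold up, and QPCT 1.46 times as high in Control), with a median log2 change of 0.30 against 0.01 over all genes. Of 21 granule genes 6 rose and 5 fell (median 0.19), among them STX1A (3.81-fold up), RAB27B (2.56-fold up) and CADPS (1.68-fold up), with UNC13B and SYTL2 1.51 and 1.44 times as high in Control. Of 8 receptors and partners 2 rose and 1 fell (NTRK3 4.30-fold and NTRK2 3.41-fold up, median 0.07), and of 15 regulators 5 rose and 2 fell (JUN 4.48-fold and FOS 2.01-fold up, median 0.08). NTRK3 and NTRK2 were not above 1 CPM in either state, summed over the treatment libraries. Of the cell type lists, 4 of 6 melanocytic markers fell, 3 of 4 primed markers rose (AXL 13.2-fold), PECAM1 rose 8.11-fold, and the tested neuroendocrine (2), leukocyte (1) and epithelial (1) markers did not pass. PECAM1 moved with SCG5 and SCG2 in these sums, and its part in the result was not tested.

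In primed cells under TGFB1, where 13.3% of all genes were called (679 higher and 775 lower), 7 of 13 tested granule genes fell and 0 rose by edgeR (median log2 -0.69 against -0.000627 over all genes). Melanocytic markers moved with them, as 5 of 6 fell and 0 rose (median log2 -0.94), and of the 4 primed markers AXL and EGFR rose and NGFR fell. The part of this in the change of the granule genes was not tested. SNAP25 was 4.91 and SYTL2 2.40 times as high in Control, with adjusted p-values of 0.000676 and 8.88e-05. Of 5 tested receptors and partners 2 fell and 1 rose (HSPA8, a chaperone, 1.36-fold). The neurotrophin BDNF and its receptor NGFR were 6.97 and 9.74 times as high in Control (adjusted p = 7.6e-05 and 4.62e-19). Of 5 processing genes FURIN rose 2.19-fold and QPCT fell, and of 15 regulators 4 fell (NR4A1, ATF3, CREM and JUN) and 0 rose.

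With TGFBRi, where 2.53% of all genes were called, 0 of 8 processing, 0 of 21 granule and 0 of 8 receptor genes were called over all cells by edgeR. Of 15 regulators ATF3 (1.42-fold) and EGR1 (1.31-fold) rose and CRTC2 fell (1.63 times as high in Control). Melanocytic, primed, neuroendocrine, leukocyte, endothelial and epithelial markers had 0 calls of 6, 4, 2, 1, 1 and 1 tested. With PI3Ki, where 12.7% of all genes were called, 1 of 8 processing genes rose (QPCT) and 2 fell (PAM and CPD), 2 of 21 granule genes rose and 3 fell (SNAP25 2.25 and RAB27B 1.85 times as high in Control), and of the receptors NGFR fell (5.69 times as high in Control). Of 15 regulators 2 rose and 3 fell, ATF3, JUN and FOSL1 being 2.26, 1.79 and 1.44 times as high in Control. All 4 primed markers fell with PI3Ki, and of 6 melanocytic markers 3 rose and 1 fell.

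Accessibility of the granin promoters was compared across the sorted populations. A promoter peak is the strongest peak within 500 bp of the annotated start, and its height is the fold enrichment over local background that the authors' peak caller gave. VGF had such a peak in 12 of 12 libraries, with a summit 118 to 141 bp before the start, upstream of the cAMP response element shown above. Fold enrichment was 59.6, 50.4 and 56.1 in Mix, 41.0, 48.2 and 53.8 in EGFR-high, 54.1, 45.05 and 50.3 in NGFR-high, and 55.9, 50.1 and 48.1 in EGFR/NGFR-high. As called, the sorts overlapped. After centring on each library's median, NGFR-high and EGFR/NGFR-high lay below Mix without overlap (exact two-sided permutation p = 0.1 each, the smallest possible), and no contrast passed limma's test (log2 -0.16, -0.32 and -0.18, adjusted p = 0.654, 0.315 and 0.615). The share of all promoters that lay apart in this way was not counted.

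The SCG2 promoter was open in all 12 libraries, although its transcript was near 4 CPM in drug-susceptible cells. Its fold enrichment was 30.5, 27.8 and 20.3 in Mix and between 26.0 and 35.7 in the 9 sorted libraries (log2 0.20, -0.00 and 0.27, adjusted p = 0.644, 0.997 and 0.533). CHGB also had a peak in 12 of 12 libraries (13.7 to 22.6), with a summit 130 to 190 bp after the start. CHGA had a weak peak in 6 of 12 libraries (4.7 to 5.38), 3 of them Mix, and SCG5 in 0 of 12.

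The SCG3 promoter had the largest difference among the 4 members tested. Its fold enrichment was 9.86, 10.8 and 9.68 in Mix, 4.27, 6.15 and 6.85 in EGFR-high, 5.96, 6.12 and 6.58 in NGFR-high, and 7.74, 7.56 and 9.92 in EGFR/NGFR-high. All EGFR-high and NGFR-high libraries lay below all Mix libraries, and the share of all promoters with this order was not counted. The log2 differences were -0.78 (SE 0.18, adjusted p = 0.105) and -0.87 (SE 0.18, adjusted p = 0.0546), and the exact two-sided permutation p was 0.1 for each, the smallest that 3 against 3 allow. Thus 0 of 4 members were called in any sort, by limma, where 0.36% (EGFR-high), 0.54% (NGFR-high) and 0.737% (EGFR/NGFR-high) of 11673 promoters were. At an unadjusted p under 0.05, 1370, 1362 and 1290 promoters passed in the 3 sorts, among them SCG3 in EGFR-high and NGFR-high and VGF in NGFR-high. The NGFR-high difference of SCG3 passed under 3 of its 6 alternatives, a window of 1000 bp (adjusted p = 0.0368), the replicate block (0.0309) and without replicate 3 (0.0289), and the adjusted p was as high as 0.492 without replicate 2.

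**Figure D5:**
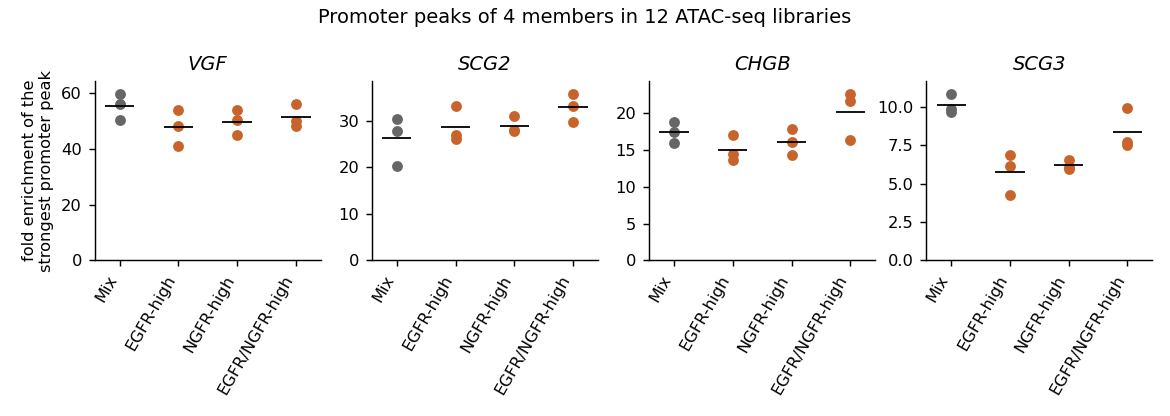
Fold enrichment of the strongest promoter peak of VGF, SCG2, CHGB and SCG3 in 12 ATAC-seq libraries, 3 for each sort, with the mean as a line (each panel has its own axis from 0). For SCG3 the EGFR-high and NGFR-high libraries (4.27 to 6.85) lay below the Mix libraries (9.68 to 10.8), while the groups of the other 3 genes lay close together.

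Outside the promoters, SCG2 and SCG5 each had a region with a peak in 9 of 9 sorted libraries and 0 of 3 Mix libraries. Peaks of all libraries were merged, and 45 regions fell in the 6 genes or within 10 kb of them. Over the genome 0.566% of 230071 merged regions had this pattern, so 2 of 45 is a description of regions that were picked out after their values were seen. The SCG2 region (chr2:223598949-223599624, hg38) overlaps exon 2 with its coding sequence, 3075 bp past the start. Its fold enrichment was 8.96, 7.56 and 7.83 in EGFR-high, 9.54, 8.75 and 9.87 in NGFR-high, and 11.3, 6.62 and 6.95 in EGFR/NGFR-high.

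The SCG5 region (chr15:32683972-32684500, hg38) lies in an intron of the canonical transcript, 42560 bp past the start, and its end overlaps an exon of shorter transcripts with a retained intron. Its fold enrichment was 4.7, 4.73 and 6.36 in EGFR-high, 5.96, 3.94 and 4.7 in NGFR-high, and 10.1, 7.56 and 6.95 in EGFR/NGFR-high. Another SCG5 region, chr15:32693330-32693807, went the other way. Its peaks were 10.3, 9.9 and 11.1 in Mix and 5.12, 5.67 and 6.36 in EGFR-high. In NGFR-high 2 libraries had a peak (5.25 and 2.82), as did 2 of EGFR/NGFR-high (2.68 and 5.46). The strongest SCG5 region, chr15:32669780-32671201, had a peak in all 12 libraries (56.4, 64.1 and 63.9 in Mix). The sequence around the summit of the region at chr15:32683972-32684500 is printed, with an E-box in capitals. It was chosen because no peak was found at the SCG5 promoter in any library.
SCG5 intron, chr15:32684196-32684495, plus strand: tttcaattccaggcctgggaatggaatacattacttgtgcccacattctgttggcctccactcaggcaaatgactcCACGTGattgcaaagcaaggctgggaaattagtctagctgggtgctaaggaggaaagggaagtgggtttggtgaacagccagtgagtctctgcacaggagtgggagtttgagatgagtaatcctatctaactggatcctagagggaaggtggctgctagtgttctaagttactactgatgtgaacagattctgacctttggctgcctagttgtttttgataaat

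Neither this window nor the SCG2 window of the same length held TGACGTCA or TGANTCA on either strand. Of the 1302 regions with a peak in 9 of 9 sorted and 0 of 3 Mix libraries, 1.77% held CACGTG and 47.3% held TGANTCA. Of all regions 4.62% and 19.8% did. Each region was searched in a window of the same length, 300 bp, around its summit.

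VGF had 14 merged regions in and around it, of which a neighbouring pair downstream of the gene had a peak in all 6 libraries sorted for NGFR. At chr7:101159679-101159980 (hg38), 5740 bp past the start and outside the gene, peaks of 12.7, 8.31 and 7.99 were called in NGFR-high, 16.1, 8.98 and 13.4 in EGFR/NGFR-high, 4.89 in 1 EGFR-high library, and 4.24 and 4.36 in 2 Mix libraries. All 6 libraries sorted for NGFR had a higher peak than any Mix or EGFR-high library. The share of all merged regions with this order was not counted. At chr7:101160261-101160699, 5089 bp past the start, peaks of 4.37, 4.81 and 3.29 were called in NGFR-high, 7.44, 5.67 and 4.47 in EGFR/NGFR-high, 3.78 in 1 EGFR-high library and in 0 of 3 Mix libraries, so that 1 NGFR-high library lay below the EGFR-high one. Both regions were picked out after their values were seen and are given without a test. Other regions, as chr7:101161700-101166629 over the gene, had a peak in all 12 libraries. Libraries sorted for NGFR held 226349 to 271153 peaks in all and Mix libraries 213412 to 227576, and the part of this was not tested.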

How the data were processed

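Single-cell RNA sequencing (3 experiments) and ATAC-seq (12 libraries) of WM989 and WM983B melanoma cells were analysed. The authors deposited filtered UMI counts per gene and cell from Cell Ranger (version not given in the sources used here), with cluster, state, cell cycle phase, percent of mitochondrial counts and replicate of each cell. They had removed cells with high gene numbers as likely doublets, and no doublet caller was run here. ATAC-seq reads were aligned to hg38 with Bowtie2 2.3.4.1, and the authors deposited MACS2 2.1.1.20160309 peaks per library with fold enrichment (a ratio) and −log10 p- and q-values. Per the submitters' processing notes SAMtools 1.1 was also used.

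Counts were summed per library and state and given per 1000000 UMIs (CPM) with exact 95% Poisson intervals. Shares of cells were also taken after thinning to 10000 UMIs (untreated WM989), with 19 cell barcodes found in more than 1 library there and 194 in the treatment experiment. Treatments were compared with edgeR 4.0.16 in R 4.3.3 (quasi-likelihood, TMM, filterByExpr, replicate as a term, 3 residual degrees of freedom, Benjamini-Hochberg adjustment, called under 0.05). DESeq2 1.42.0 was an alternative. The r1 and r2 labels paired the libraries, since the r2 minus r1 differences of 2 treatments correlated over genes at 0.256 to 0.365 in all 6 pairs. Promoter peaks were compared with limma 3.58.1 on centred log2 fold enrichment. A limit for 0 UMIs is 3 counts. The scripts were tested on simulated data.

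The members and gene lists were chosen with earlier results of these data known. Text names all 6 members, list genes past the threshold, and the 5 genes with the highest correlation to VGF and to SCG2, of which some items are not reported here.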

Additional observations from a re-analysis of the deposited data

Results flagged for a closer look

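For 3 members edgeR's quasi-likelihood fit, by a test of the difference itself, called the treatment effect different between primed and drug-susceptible cells. In that fit the prior degrees of freedom were estimated as infinite, so every gene took its spread from the common trend. The state labels come from clusters of the same counts. The primed minus drug-susceptible difference of the log2 fold change with TGFB1 was -1.74 for VGF (adjusted p = 1.63e-78), -2.44 for SCG2 (2.49e-40) and 2.40 for SCG5 (9.65e-12). For VGF it was -0.46 with TGFBRi (adjusted p = 0.000293) and -0.79 with PI3Ki (2.94e-11). In both replicates of TGFB1, relative to the Control library of the same replicate, VGF and SCG2 were lower and SCG5 was higher in primed than in drug-susceptible cells. None of the 5 passed a limma fit on library differences, chosen after the data were seen (adjusted p = 0.137, 0.172, 0.83, 0.988 and 0.33 in the same order). Without Control r1 the VGF value with TGFBRi was -0.26 (adjusted p = 0.558). The primed cells of TGFB1 and of Control came mostly from different clusters, 4 and 10, and the part of this in the differences was not tested. Of 10 groups of 4 or more libraries, 0 held a library far from the others, where chance flags about 1 in 20 groups.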

How the results depend on the processing

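The calls of SCG5 and SCG2 with TGFB1 and of SCG5 with PI3Ki over all cells, and of VGF, SCG2 and SCG5 with TGFB1 in primed cells, held under every alternative run. In the fits without the replicate block, over all cells VGF gave -0.90 with TGFB1 (adjusted p = 0.109) and 0.86 with TGFBRi (0.596) and SCG2 -0.78 with PI3Ki (0.0846). These calls ended, and the genes called fell to 40 with TGFBRi and 649 with PI3Ki over all cells, 1189, 47 and 570 with TGFB1, TGFBRi and PI3Ki in drug-susceptible cells, and 9 and 87 with TGFBRi and PI3Ki in primed cells. With no filter on low counts TGFBRi called 748 genes over all cells, SCG2 with TGFBRi (0.38) and CHGB with PI3Ki (0.83). DESeq2 called 326 genes with TGFBRi in drug-susceptible cells, and 693 with TGFB1 and 16 with TGFBRi in primed cells. The limma fit on library differences called 87, 154 and 465 genes for TGFB1, TGFBRi and PI3Ki, and CHGB turned to -1.88 with PI3Ki. Leaving out 1 library in turn, genes called ran over all cells from 3164 to 4161 with TGFB1, 168 to 1146 with TGFBRi and 719 to 1302 with PI3Ki, in drug-susceptible cells from 988 to 2098, 206 to 1247 and 632 to 1237, and in primed cells from 584 to 763, 17 to 31 and 96 to 138. Over the same fits CHGB with PI3Ki ran from 0.34 to 1.47, CHGB with TGFBRi from -0.72 to 0.16, SCG5 with TGFBRi from -0.14 to 0.17 and VGF with PI3Ki from -0.14 to 0.40 over all cells. In drug-susceptible cells CHGB ran from -0.018 to 0.99 with TGFB1 and from -0.75 to 0.26 with TGFBRi, and VGF from -0.12 to 0.42 with PI3Ki. In primed cells VGF ran from -0.024 to 0.78 with TGFBRi and SCG2 from -0.60 to 0.059 with PI3Ki. For the difference between states, leaving out 1 library in turn (added after the data were seen) called 825 to 1246 genes with TGFB1, 67 to 94 with TGFBRi and 129 to 171 with PI3Ki, VGF with TGFBRi ran from -0.68 to -0.26, SCG2 from -0.34 to 0.27 with TGFBRi and from -0.28 to 0.12 with PI3Ki, SCG3 with TGFBRi from -8.22 to 0.52 and CHGB with PI3Ki from -8.82 to 1.49. Leaving out a whole replicate there left no residual degrees of freedom. For promoters, a window of 1000 bp called 107 in NGFR-high and SCG3 at -0.87, and the replicate block, for numbers that did not pair the libraries (correlations of -0.0225 to 0.12), also called SCG3 at -0.87 (adjusted p = 0.0309). SCG2 in NGFR-high turned to 0.0048 with −log10 q of at least 5 and to 0.16 without centring. Without 1 replicate, promoters called ran from 9 to 15 in EGFR-high, 5 to 56 in NGFR-high and 20 to 60 in EGFR/NGFR-high, SCG2 in NGFR-high from -0.20 to 0.12 and SCG3 from -0.996 to -0.75. Among log2 differences between states, CHGB was 1.68 without primed cluster 2, WM983B VGF was -0.34 without primed cluster 0 and -0.59 in thinned cells, WM983B SCG2 turned to -1.36 without primed cluster 0, Control VGF turned to -0.26 without primed cluster 10, and Control SCG5 was 3.05 in thinned cells. VGF in r2 against r1 of untreated WM989 turned to -0.20 in drug-susceptible cells and ran from -0.048 to 0.35 without 1 well. The causes were not tested. Of the other alternatives 291 of 338, and of those without 1 library 246 of 321, kept direction and side of the threshold or stayed close to the value. Low counts limited CHGA, CHGB, SCG3 and primed SCG5 with TGFBRi and PI3Ki.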
